A study of Mus musculus with 75 samples.

Results

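A set of 8 genes of hepatic sugar metabolism was followed across mouse livers of 3 ages: the fetal-type or broadly expressed glycolytic enzymes Hk1, Hk2, Aldoa and Pkm, the liver-type pyruvate kinase Pklr, and the gluconeogenic enzymes G6pc, Pck1 and Fbp1. They were chosen by gene symbol, with earlier results of these data known. The 8 symbols match 9 of the 55536 gene models counted, because Aldoa has a second, short model. In livers labelled high risk, Hk1, Hk2, Aldoa and Pkm were higher and Pklr was lower than in livers labelled low risk at 5 months. At 10 months Hk1, Hk2 and Pkm were higher and Pklr, G6pc and Fbp1 lower in the uninvolved liver of high-risk mice than in low-risk livers. The G6pc and Fbp1 calls were lost when libraries were scaled by total counts. Of all genes tested, 38.9% passed in the 5-month and 52.4% in the 10-month comparison. Pck1 passed the test in neither comparison.

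RNA was sequenced from livers of male wild-type C57Bl/6 mice whose dams drank water with vehicle or with tributyltin (TBT), an organotin, at a daily dose of 0.5 mg/kg (3.07 µM in the water) until the pups were weaned. At 3 weeks there were 7 vehicle livers (8 libraries) and 8 TBT livers. At 5 months there were 8 vehicle livers, 16 TBT livers labelled low risk and 10 TBT livers labelled high risk. At 10 months there were 6 vehicle livers, 5 low-risk TBT livers, 5 samples of uninvolved liver from high-risk TBT mice (6 libraries) and 7 tumors of TBT mice. A further vehicle library labelled as tumor entered no comparison. How the 5-month livers were given their risk label is not stated in the labels, and it could rest on expression values of these same livers. Replicates carry separate mouse numbers, and nothing more is said of litters or dams. The tests treat the mice as independent, although the dams were dosed, so p-values could be too small if littermates are among them.

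Glycolysis splits glucose to pyruvate and gluconeogenesis runs the other way, from lactate, amino acids and glycerol to glucose. Adult hepatocytes use their own isoforms at several steps of these pathways, such as the L form of pyruvate kinase from Pklr rather than the M forms from Pkm, and hold little of the high-affinity hexokinases. Fetal liver, proliferating cells and non-parenchymal cells of the liver use the hexokinases, aldolase A and Pkm, and a turn to those isoforms is a known feature of hepatocellular carcinoma. Glucose-6-phosphatase (G6pc), cytosolic phosphoenolpyruvate carboxykinase (Pck1) and fructose-1,6-bisphosphatase (Fbp1) catalyse the steps specific to gluconeogenesis.

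Upstream sequences of 4 genes are shown because they belong to genes that ended on different sides of the comparisons: Hk2 and Aldoa, which were higher in high-risk liver at 5 months, Pklr, which was lower, and Pck1, which passed no risk or tumor test. They are RefSeq start sites on GRCm38.p6, written 5′ to 3′ on the gene's strand and trimmed where an annotated exon lies in the stretch. Capitals mark matches on either strand to any of 5 motifs. ACGTG is the core of the element through which hypoxia-inducible factors act. The letters ACGTCA are part of the cAMP response element, through which glucagon signals reach gluconeogenic genes. A GC box was searched as GGGCGG. The E-box, which Myc and ChREBP bind, was searched as the exact letters CACGTG only, so imperfect E-boxes were not counted. The TATA box of many regulated promoters was searched as TATAAA.
Hk2, minus strand, chr6:82774455-82774704: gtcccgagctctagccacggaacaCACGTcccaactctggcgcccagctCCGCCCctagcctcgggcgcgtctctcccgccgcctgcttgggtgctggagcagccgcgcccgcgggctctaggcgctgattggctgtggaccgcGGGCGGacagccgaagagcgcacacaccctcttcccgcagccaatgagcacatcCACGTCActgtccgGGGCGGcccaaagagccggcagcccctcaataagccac
Aldoa, minus strand, chr7:126799255-126799504: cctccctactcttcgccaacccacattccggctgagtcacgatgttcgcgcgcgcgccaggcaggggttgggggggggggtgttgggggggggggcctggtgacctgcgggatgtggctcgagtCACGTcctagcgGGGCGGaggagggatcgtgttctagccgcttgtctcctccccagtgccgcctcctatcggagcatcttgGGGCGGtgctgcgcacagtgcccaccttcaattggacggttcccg
Pklr, plus strand, second start site, chr3:89136373-89136571: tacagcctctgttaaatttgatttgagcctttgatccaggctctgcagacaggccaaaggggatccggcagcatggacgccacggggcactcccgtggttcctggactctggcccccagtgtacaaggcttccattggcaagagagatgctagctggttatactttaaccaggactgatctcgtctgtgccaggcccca
Pck1, plus strand, chr2:173152823-173153047: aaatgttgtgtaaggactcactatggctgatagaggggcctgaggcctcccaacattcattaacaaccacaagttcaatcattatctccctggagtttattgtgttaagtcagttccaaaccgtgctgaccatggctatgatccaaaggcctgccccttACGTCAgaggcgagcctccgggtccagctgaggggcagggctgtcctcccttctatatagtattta
Start sites of Hk1, which was also higher, and Pkm are not printed: the 250 bases before the first Hk1 start held none of the motifs, and the 2 Pkm windows held 1 ACGTG and 1 GGGCGG between them. Aldoa and Pklr have further start sites that are not printed. The most upstream Aldoa window and the first Pklr window held none of the motifs. An Aldoa window overlapping the printed stretch held 1 ACGTG and 3 GGGCGG. The Hk2 stretch held 2 matches to ACGTG, 1 to ACGTCA and 3 to GGGCGG, and 1 ACGTG overlaps the ACGTCA. The Aldoa stretch held 1 ACGTG and 2 GGGCGG, the Pck1 stretch 1 ACGTCA, and the Pklr stretch no exact match to the 5 motifs. Near matches were not searched: the Pklr stretch holds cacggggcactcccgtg, whose 2 ends each differ from CACGTG by 1 letter. The Pck1 and Pklr stretches were trimmed to 225 and 199 bases. Their full windows of 250 bases also held 1 GGGCGG for Pck1 and 1 TATAAA for Pklr. Among the 250 bases upstream of 32851 start sites, ACGTG was present in 16.6%, ACGTCA in 6.47%, GGGCGG in 32.7%, CACGTG in 6.02% and TATAAA in 12.4%. These matches describe letters in a window and say nothing of a factor's binding.

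Levels are given as CPM, a gene's count scaled to the same total count in every library, and differences as log2 fold changes on the trimmed-mean (TMM) scale of edgeR, tested by its quasi-likelihood test with Benjamini-Hochberg adjustment over all genes tested. "Higher", "lower", "rose" and "fell" are used of an adjusted p under 0.05. Totals per sample ran from 26.17 to 30.98 M counts in vehicle liver, 26.43 to 33.49 M in low-risk liver, 34.76 to 44.59 M in single libraries of uninvolved liver and 22.5 to 27.89 M in tumors at 10 months, and from 2.832 to 45.45 M at 5 months. The 2 scales differ: scaled by total counts, the median log2 fold change of all genes was 0.30 for high-risk against low-risk liver at 5 months and also 0.30 for uninvolved against low-risk liver at 10 months, so a change in CPM reads higher by about that much than the TMM-scaled fold. In the comparisons 4 livers stood apart in depth, genes detected or mitochondrial share (vehicle mouse 9, low-risk mouse 16 and high-risk mice 10 and 15, all at 5 months), as did 1 of the libraries of vehicle mouse 3 at 3 weeks, and their effect is given where it touches a call. The libraries of uninvolved liver from mice 3 and 6 were nearly identical and were summed to 1 sample. The hepatocyte markers matched in the data (4 of 5) were abundant in all groups, summing to a median of 102333 CPM in low-risk and 105426 CPM in high-risk liver at 5 months. On the TMM scale Apoa1 and Ttr were lower in high-risk liver and none was higher, with a list median of -0.45 against -0.01 over all genes. In bulk liver, fewer cells of a type and less RNA per cell cannot be told apart.

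In adult vehicle liver the liver-type pyruvate kinase stood far above the M forms when compared per kilobase of exon. At 10 months the median level of Pklr was 71.2 CPM per kb and that of Pkm 3.35. Hk1 stood at 0.454 and Hk2 at 0.435 CPM per kb, and Aldoa at 27.9. The gluconeogenic genes were among the higher ones, at 726 CPM per kb for Pck1, 696 for Fbp1 and 179 for G6pc.

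**Figure D1:**
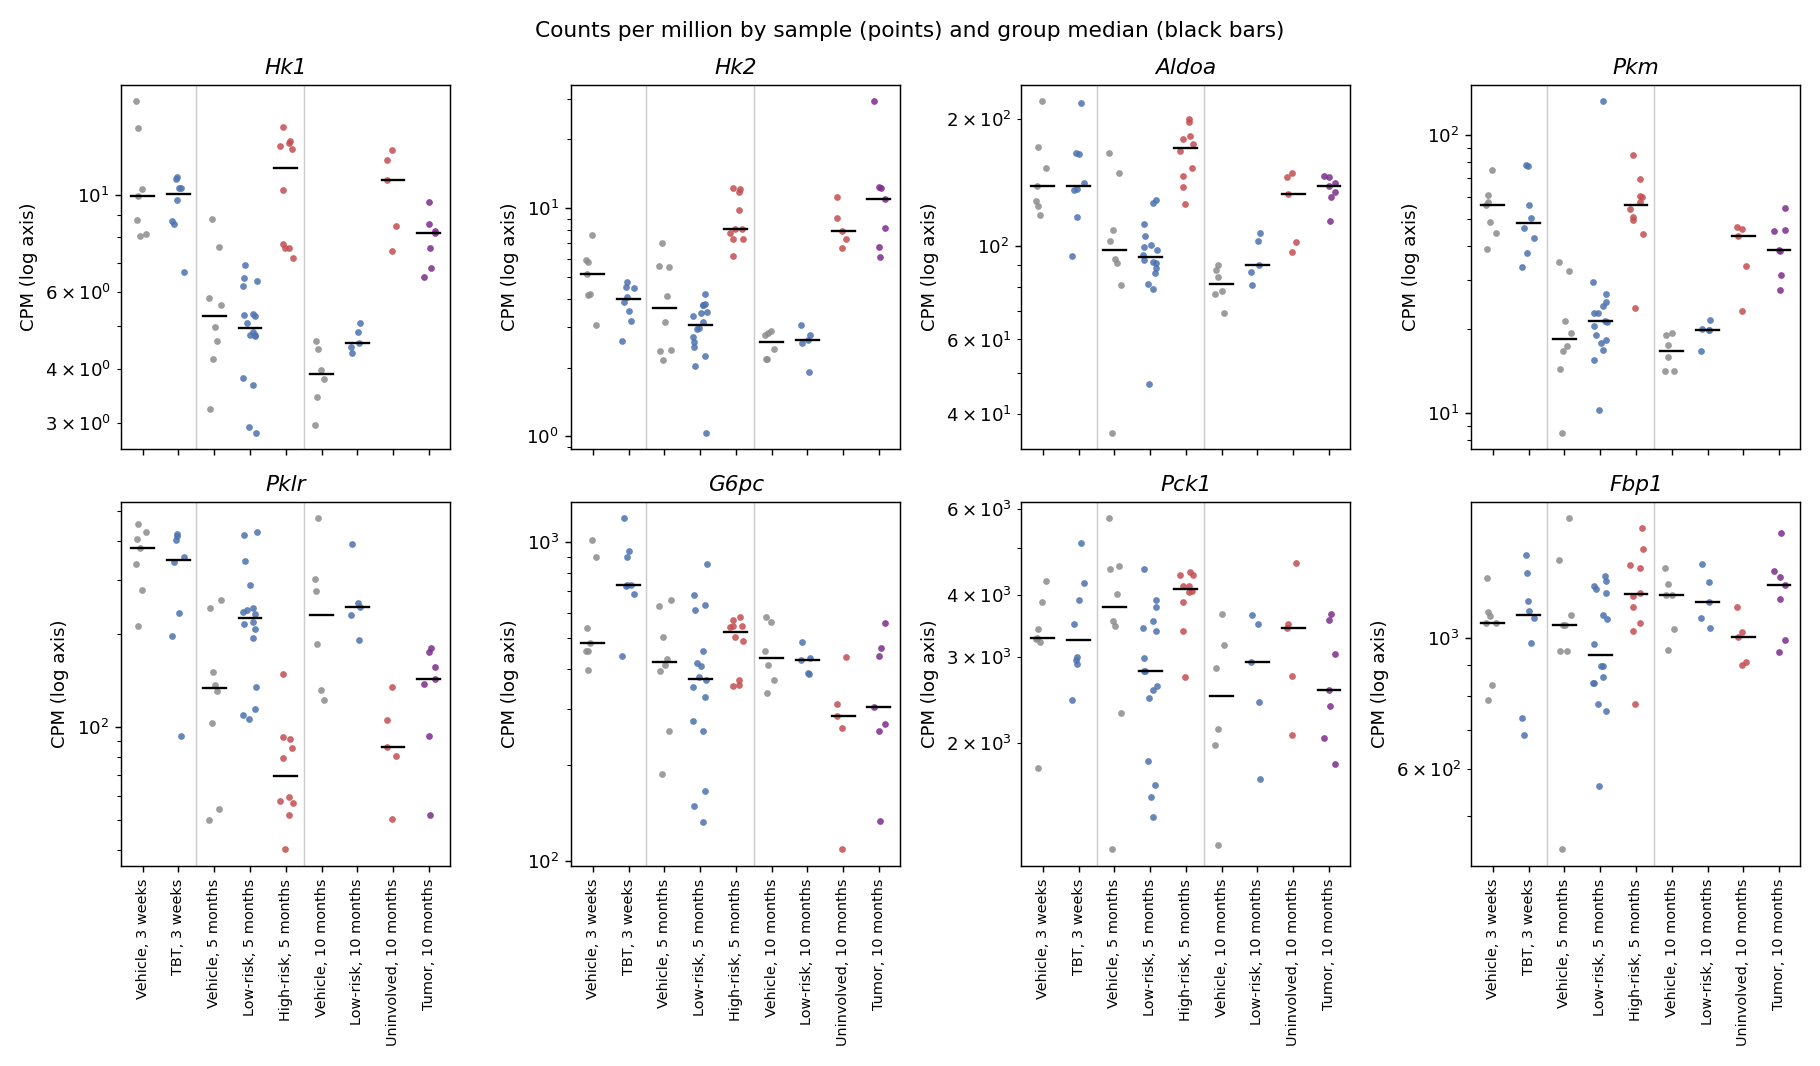
Level of each of the 8 genes in every sample, in CPM on a log axis, by age and group; each point is 1 sample and the bar is the group's median. Hk1 and Hk2 of the high-risk livers at 5 months lie above all low-risk livers, and Pklr of the uninvolved livers at 10 months lies below all low-risk livers of that age.

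At 5 months, 5 of the 8 genes differed between high-risk and low-risk liver, 4 higher and 1 lower, where 38.9% of 14773 genes tested passed, 20.3% higher and 18.5% lower. Hk1 (GRCm38 chr10:62268855-62379908, minus strand) encodes hexokinase 1, the high-affinity enzyme of most tissues. Its lowest, median and highest levels were 2.85, 4.96 and 6.92 CPM in the 16 low-risk livers and 7.19, 11.5 and 14.3 CPM in the 10 high-risk livers. The 2 groups did not overlap, and the log2 fold change was 0.76 (SE 0.15, adjusted p = 0.000102). Hk2 (chr6:82725025-82774454, minus strand), the insulin-regulated hexokinase of muscle and of many tumors, ran at 1.04, 3.07 and 4.21 CPM in low-risk and 6.17, 8.11 and 12.3 CPM in high-risk liver. It too was higher in every high-risk than in any low-risk liver, with a log2 fold change of 1.27 (SE 0.18, adjusted p = 1.57e-06). Only 2.45% of the genes tested were higher in this comparison without overlap in CPM.

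Aldoa (chr7:126795234-126800751, minus strand), aldolase A of muscle and fetal liver, ran at 47.0, 94.1 and 129 CPM in low-risk and 126, 171 and 200 CPM in high-risk liver at 5 months. Of the 10 high-risk livers 9 exceeded all low-risk ones, and the log2 fold change was 0.50 (SE 0.14, adjusted p = 0.00511). The second Aldoa model (chr7:126800790-126809108) never exceeded 1.41 CPM and was not tested. Pkm (chr9:59656368-59679375, plus strand) encodes the M1 and M2 pyruvate kinases by alternative splicing, which a count per gene does not separate. Its levels were 10.2, 21.3 and 132 CPM in low-risk and 23.8, 55.9 and 85.0 CPM in high-risk liver, a log2 fold change of 0.79 (SE 0.27, adjusted p = 0.0208). The low-risk value of 132 CPM was that of mouse 2, and the next was 29.6 CPM. Without that library the log2 fold change of Pkm was 1.06 (adjusted p = 2.13e-06). With no filter on low counts and all libraries, Pkm lost its call (0.77, adjusted p = 0.0811).

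Pklr (chr3:89136142-89146784, plus strand), the liver and red-cell pyruvate kinase, moved the other way. It ran at 106, 225 and 427 CPM in low-risk and 40.3, 69.4 and 149 CPM in high-risk liver at 5 months. Of the 10 high-risk livers 9 lay below all low-risk livers, and the exception was mouse 22, at 149 CPM. The log2 fold change was -1.94 (SE 0.24, adjusted p = 2.09e-07). Hcn3, on the opposite strand, overlaps the 3′ end of Pklr, as Fam57b overlaps Aldoa, and whether the counting used strand is not given in the sources used here.

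The 5-month libraries came from 2 sequencing batches, and batch was a term of the fit. By the name of the deposited file, the counts had already been adjusted for batch by ComBat-seq. The fits of single batches below use the same adjusted counts, and the effect of that adjustment on spread and p-values was not tested. In batch 2 alone (7 high-risk, 10 low-risk) the log2 fold changes were 0.78 for Hk1, 1.26 for Hk2, 0.51 for Aldoa, 1.18 for Pkm and -1.99 for Pklr, all with adjusted p of 0.000732 or less. The share of all genes passing in batch 2 alone is not given here. Its livers are part of the main fit, where 38.9% of genes passed. In batch 1 alone (3 high-risk, 6 low-risk) Hk2 at 1.29 (adjusted p = 0.0458) and Pklr at -1.84 (adjusted p = 0.0372) passed, where 4.69% of genes did. Hk1 at 0.73 (adjusted p = 0.194) and Aldoa at 0.47 (adjusted p = 0.489) did not pass there. Pkm stood at -0.09 (adjusted p = 0.959) in batch 1, which holds low-risk mouse 2.

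The gluconeogenic genes did not pass the test between high-risk and low-risk liver at 5 months. G6pc (chr11:101367561-101377903, plus strand), which releases free glucose from glucose 6-phosphate, ran at 132, 373 and 856 CPM in low-risk and 354, 523 and 584 CPM in high-risk liver (log2 fold change -0.06, SE 0.23, adjusted p = 0.856). Pck1 (chr2:173153048-173159273, plus strand), which makes phosphoenolpyruvate from oxaloacetate, ran at 1410, 2805 and 4518 CPM and at 2730, 4129 and 4455 CPM (0.21, SE 0.19, adjusted p = 0.385). Scaled by total counts, Pck1 had a log2 fold change of 0.52 (adjusted p = 0.0189). Fbp1 (chr13:62864753-62888282, minus strand), which removes the 1-phosphate of fructose 1,6-bisphosphate, ran at 563, 938 and 1273 CPM and at 775, 1188 and 1539 CPM (-0.03, SE 0.15, adjusted p = 0.897). For all of these the groups overlapped widely.

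Against vehicle livers of the same age, high-risk liver had higher Hk2 and Pkm and lower Pklr, 3 of the 8 genes, where 15.8% of genes tested passed, 8.47% higher and 7.38% lower. No member was free of overlap between these groups, as 1.6% of genes were on the higher and 0.0135% on the lower side. This comparison shares the high-risk livers with the one above. The log2 fold changes were 0.81 for Hk2 (SE 0.25, adjusted p = 0.0218), 1.27 for Pkm (SE 0.37, adjusted p = 0.0167) and -1.75 for Pklr (SE 0.29, adjusted p = 0.000239). Hk1 at 0.48 (SE 0.20, adjusted p = 0.0943) and Aldoa at 0.37 (SE 0.19, adjusted p = 0.18) did not pass with all libraries, and passed without the 4 libraries that stood apart, at 0.68 (adjusted p = 0.0123) and 0.41 (adjusted p = 0.0243). Within batch 1, which holds 7 of the 8 vehicle livers but 3 high-risk livers, no member passed. The share of all genes passing there is not given here. With no filter on low counts Hk2 (adjusted p = 0.0617) and Pkm (adjusted p = 0.0953) lost their calls. Vehicle livers were not uniform: mice 4 and 6 had the highest Pkm of the group (34.9 and 32.3 CPM) and the lowest Pklr (49.99 and 54.4 CPM). No member differed between low-risk and vehicle liver at 5 months, where none of the genes tested passed (0%), and Pklr there had a log2 fold change of 0.19 (adjusted p = 0.961).

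At 10 months, 6 of the 8 genes differed between the uninvolved liver of high-risk mice and low-risk liver, 3 higher and 3 lower, where 52.4% of 16338 genes passed, 27.7% higher and 24.7% lower. The uninvolved libraries also stood apart in quality measures, with 24676 to 28715 genes detected against 21663 to 22578 in low-risk liver and 4.202% to 5.845% mitochondrial counts against 2.94% to 3.081%, and the part of this in the results was not tested. Hk1 was 4.49, 4.84, 4.35, 4.57 and 5.10 CPM in low-risk mice 2, 4, 8, 9 and 10, and 12.04, 12.7, 8.50, 7.45 and 10.8 CPM in uninvolved liver of mice 1, 3 and 6 combined, 5, 7 and 12. Hk2 was 3.07, 2.65, 2.57, 1.91 and 2.77 CPM in the same low-risk livers and 11.2, 7.93, 7.33, 6.67 and 9.04 CPM in the uninvolved livers. Pkm was 16.6, 19.9, 20.1, 19.8 and 21.5 CPM in low-risk and 43.4, 45.9, 33.7, 23.4 and 46.7 CPM in uninvolved liver. For each of these the groups did not overlap, as for 23.2% of genes tested in this direction. The log2 fold changes were 0.91 for Hk1 (SE 0.15, adjusted p = 0.000127), 1.46 for Hk2 (SE 0.16, adjusted p = 2.14e-06) and 0.75 for Pkm (SE 0.16, adjusted p = 0.00117).

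Pklr at 10 months was 231, 251, 391, 192 and 245 CPM in low-risk and 105, 135, 80.5, 50.5 and 86.3 CPM in uninvolved liver. The groups did not overlap, as for 6.74% of genes in this direction, and the log2 fold change was -1.76 (SE 0.35, adjusted p = 0.000747). Aldoa, at 86.6, 103, 80.6, 89.98 and 107 CPM against 133, 149, 102, 96.8 and 146 CPM, overlapped and did not pass (0.20, SE 0.13, adjusted p = 0.202). Scaled by total counts it passed, with a log2 fold change of 0.43 (adjusted p = 0.0079), and without uninvolved mouse 7 it passed at 0.29 (adjusted p = 0.0446).

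Unlike at 5 months, members of the gluconeogenic group passed the test at 10 months, although the difference between ages was not itself significant. G6pc was 427, 390, 486, 387 and 432 CPM in low-risk and 286, 261, 437, 109 and 311 CPM in uninvolved liver, a log2 fold change of -0.84 (SE 0.25, adjusted p = 0.0115). Mouse 5 of the uninvolved livers lay among the low-risk values and the other 4 samples lay below them. Fbp1 was 1082, 1246, 1335, 1152 and 1043 CPM in low-risk and 1004, 1025, 913, 902 and 1129 CPM in uninvolved liver (-0.47, SE 0.12, adjusted p = 0.00432). Both depend on the scale: by total counts G6pc stood at -0.59 (adjusted p = 0.0516) and Fbp1 at -0.23 (adjusted p = 0.0572). Pck1 was 2918, 3503, 3640, 2425 and 1691 CPM against 3492, 2744, 4647, 2077 and 3424 CPM and did not pass (-0.04, SE 0.28, adjusted p = 0.913).

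Against vehicle livers at 10 months, 7 of the 8 genes passed in uninvolved liver, 4 higher and 3 lower, where 57.7% of genes did, 31.2% higher and 26.5% lower. This comparison shares the uninvolved livers with the one above, so it is no separate support for it. The lowest, median and highest vehicle values were 2.97, 3.88 and 4.63 CPM for Hk1, 2.19, 2.60 and 2.90 CPM for Hk2, 69.4, 81.3 and 90.4 CPM for Aldoa, 14.1, 16.8 and 19.4 CPM for Pkm and 122, 230 and 474 CPM for Pklr. Hk1 (log2 fold change 1.11, SE 0.15, adjusted p = 7.96e-06), Hk2 (1.40, SE 0.15, adjusted p = 1.01e-06), Aldoa (0.33, SE 0.12, adjusted p = 0.0298) and Pkm (0.91, SE 0.16, adjusted p = 0.000107) were higher with no overlap, as were 27.3% of genes, and 5.38% were lower without overlap. Aldoa lost its call with no filter on low counts (adjusted p = 0.0569), without mice 3 and 6 (0.25, adjusted p = 0.0798) or without mouse 12 (0.22, adjusted p = 0.0865). Pklr fell by 1.74 on the log2 scale (SE 0.34, adjusted p = 0.000514), G6pc by 0.999 (SE 0.25, adjusted p = 0.00258) and Fbp1 by 0.52 (SE 0.12, adjusted p = 0.00136), and by total counts Fbp1 stood at -0.21 (adjusted p = 0.0669). Low-risk and vehicle liver at 10 months differed in no member, with adjusted p of 1 throughout and 0% of genes passing, while 0.967% of genes were higher without overlap.

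**Figure D2:**
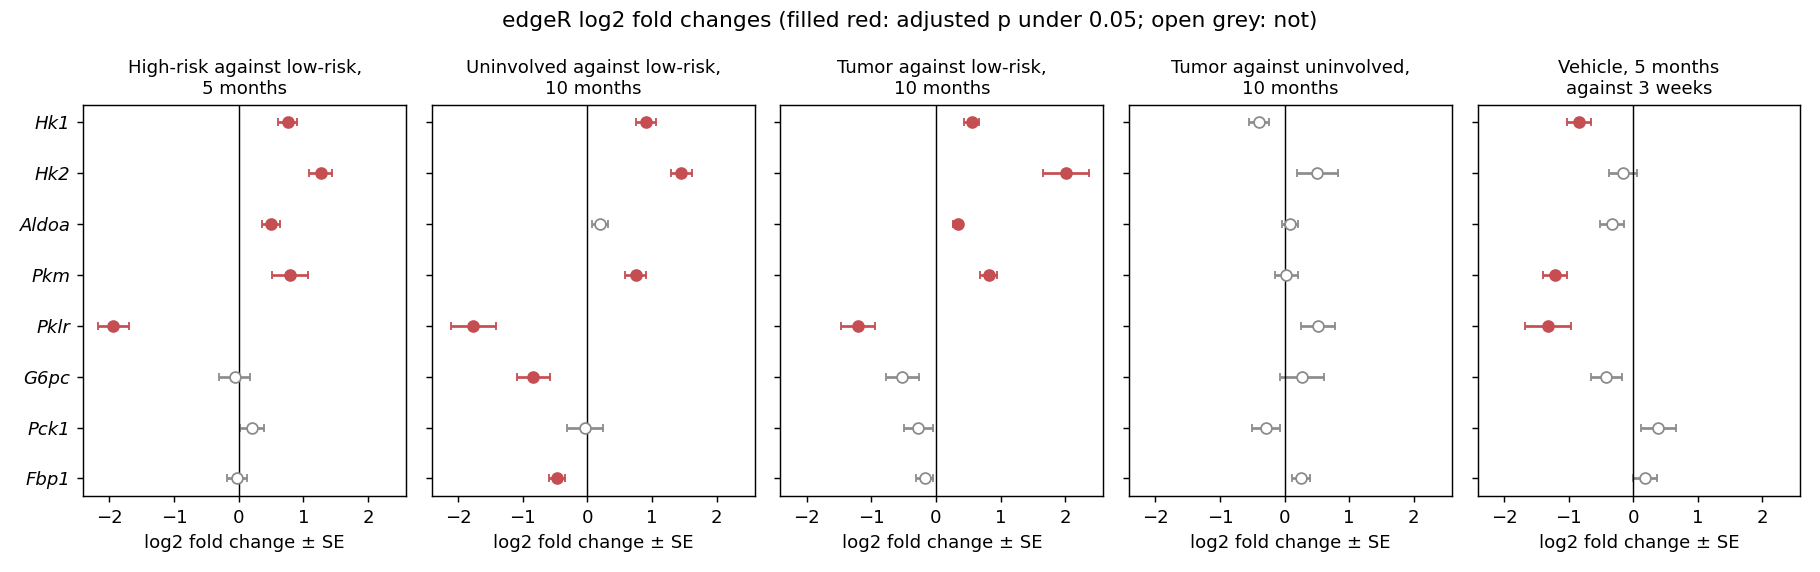
Log2 fold change of each of the 8 genes on the TMM scale of edgeR, with its standard error, in the comparisons of risk groups, tumors and ages. Hk1, Hk2 and Pkm lie above 0 and Pklr below 0 in high-risk against low-risk liver at 5 months and in uninvolved against low-risk liver at 10 months.

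Tumors were compared with uninvolved liver, low-risk liver and vehicle liver at 10 months. Against uninvolved liver none of the 8 genes passed, where 18.1% of 16362 genes did, 7.55% higher and 10.5% lower (3.61% and 2.75% without overlap), and Hk1 was the only member with an unadjusted p under 0.05 (0.0211; log2 fold change -0.39, SE 0.15, adjusted p = 0.0832). Hk2 ran at 6.12, 10.9 and 29.3 CPM in the 7 tumors and had a log2 fold change of 0.51 against uninvolved liver (SE 0.31, adjusted p = 0.268), and of 0.15 without the tumor of mouse 12. Pklr ran at 51.9, 143 and 180 CPM in tumors, and its log2 fold change was 0.52 (SE 0.27, adjusted p = 0.186). Tumors and uninvolved liver of 6 mouse numbers are paired by the labels, and with mouse as a block no member passed (Hk1 -0.44, adjusted p = 0.13; Pklr 0.37, adjusted p = 0.0591). That fit counts the nearly identical uninvolved libraries of mice 3 and 6 as separate samples, and with the 4 other pairs alone no member passed either. These p-values do not show that tumor and uninvolved liver were alike.

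Against low-risk liver, 5 of the 8 genes passed in tumors, 4 higher and 1 lower, and all 5 without overlap, where 36.7% of genes passed and 16.3% were higher and 1.86% lower without overlap. The log2 fold changes were 0.56 for Hk1 (SE 0.12, adjusted p = 0.00227), 2.01 for Hk2 (SE 0.35, adjusted p = 0.000853), 0.33 for Aldoa (SE 0.07, adjusted p = 0.00217), 0.82 for Pkm (SE 0.13, adjusted p = 0.000438) and -1.21 for Pklr (SE 0.26, adjusted p = 0.00297). The tumor of mouse 12, at 29.3 CPM, gave the highest Hk2, with the next tumor at 12.4 CPM, and without it Hk2 stood at 1.65 (adjusted p = 0.000167). Tumor levels were 6.49, 8.19 and 9.63 CPM for Hk1, 115, 139 and 146 CPM for Aldoa and 27.6, 38.6 and 54.7 CPM for Pkm. G6pc at 134, 304 and 558 CPM, Pck1 at 1812, 2565 and 3661 CPM and Fbp1 at 949, 1230 and 1510 CPM did not pass against low-risk liver, with a log2 fold change of -0.52 for G6pc (SE 0.26, adjusted p = 0.128).

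Against vehicle liver, with the same tumors, 6 of the 8 passed where 45.9% of genes did, 24.8% higher and 21% lower: Hk1 at 0.74 (SE 0.13, adjusted p = 3e-04), Hk2 at 1.95 (SE 0.31, adjusted p = 0.000204), Aldoa at 0.45 (SE 0.06, adjusted p = 4.09e-05), Pkm at 0.96 (SE 0.13, adjusted p = 4.17e-05), Pklr at -1.19 (SE 0.32, adjusted p = 0.00802) and G6pc at -0.70 (SE 0.25, adjusted p = 0.0348). The 4 higher genes did not overlap between groups, as for 22.3% of genes, and 1.58% were lower without overlap. The G6pc call was lost without the tumor of mouse 12 (-0.65, adjusted p = 0.0655) and by total counts (-0.39, adjusted p = 0.239), and with no filter on low counts (adjusted p = 0.101).

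At weaning none of the 8 genes differed between TBT and vehicle livers by edgeR at an adjusted p under 0.05, where 0% of 14050 genes passed. Hk2 was the only member with an unadjusted p under 0.05 (0.0255), at 3.07, 5.15 and 7.60 CPM in 7 vehicle livers and 2.61, 3.98 and 4.76 CPM in 8 TBT livers, and its log2 fold change was -0.37 (SE 0.15, adjusted p = 0.999). G6pc was 397, 482 and 1013 CPM in vehicle and 440, 733 and 1189 CPM in TBT liver (0.41, SE 0.21, adjusted p = 0.999). Pklr was 213, 381 and 455 CPM against 94.0, 348 and 420 CPM, and Pck1 was 1781, 3273 and 4270 CPM against 2450, 3243 and 5109 CPM.

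Between weaning and 5 months, within sequencing batch 1 of vehicle livers, Pkm, Hk1 and Pklr fell, 3 of the 8 genes, where 24.2% of 14962 genes passed and 12.3% were lower. Pkm ran at 39.0, 56.2 and 74.8 CPM at 3 weeks and 8.48, 17.3 and 34.9 CPM in the 7 vehicle livers of that batch at 5 months. The ages did not overlap, as for 6.04% of genes in this direction, and the log2 fold change was -1.20 (SE 0.18, adjusted p = 5.11e-05). Hk1 fell by 0.84 on the log2 scale (SE 0.19, adjusted p = 0.00212), from a median of 9.94 to 4.98 CPM. Pklr, the liver form, fell as well, by 1.32 (SE 0.35, adjusted p = 0.00925), from a median of 381 to 131 CPM, and lost its call with no filter on low counts (adjusted p = 0.0641). Hk2 fell between 5 and 10 months (-0.72, SE 0.23, adjusted p = 0.0398), where 14.1% of genes passed, from a median of 4.10 to 2.60 CPM. That call was lost in 4 of 9 alternative settings. The 5 proliferation markers summed to a median of 183 CPM in vehicle liver at 3 weeks, and all 5 fell by 5 months. All 6 endothelial, 4 of 7 stellate-cell, 4 of 7 macrophage and 1 of 4 hepatocyte markers fell as well, with median sums going from 529 to 265, 1016 to 434, 591 to 409 and 155968 to 96548 CPM over all vehicle livers of those ages. Erythrocyte markers, of the cells that also use Pklr, had median sums of 642 CPM at 3 weeks and 200 CPM at 5 months in the same livers. The part of these cells in the members' differences was not tested.

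Read as levels, the order of the groups differed between genes. For Hk2, the low-risk and vehicle livers of 5 and 10 months had medians of 2.60 to 3.64 CPM, the 3-week groups 3.98 and 5.15 CPM, uninvolved liver 7.93 CPM, high-risk liver at 5 months 8.11 CPM and tumors 10.9 CPM, and the ranges of neighbours in that order overlapped. For Pkm, high-risk liver at 5 months (median 55.9 CPM) and vehicle liver at 3 weeks (56.2 CPM) stood side by side and their ranges overlapped. For Pklr the lowest group was high-risk liver at 5 months (69.4 CPM) and the highest vehicle liver at 3 weeks (381 CPM).

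Whether the risk difference itself changed with age was tested as an interaction between the 10-month contrast of uninvolved and low-risk liver and the 5-month contrast of high-risk and low-risk liver. None of the 8 members passed, where 0.448% of 16084 genes did. G6pc gave -0.77 (SE 0.43, adjusted p = 0.488) and Fbp1 -0.44 (SE 0.24, adjusted p = 0.474). Thus G6pc and Fbp1 passed the threshold at 10 months and not at 5 months, without a significant difference between the ages. Mlxipl, the carbohydrate response factor ChREBP that acts on Pklr, was among the genes that passed, with log2 fold changes of -1.29 at 5 months (adjusted p = 9.07e-05) and 0.41 at 10 months (adjusted p = 0.0701) and an interaction of 1.70 (SE 0.34, adjusted p = 0.0225).

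Ratios of paired isoforms per kilobase of exon put these changes within each sample and are given without a test. The Pkm to Pklr ratio had a median of 0.0609 in low-risk liver at 5 months (0.0322 to 0.352) and 0.476 in high-risk liver (0.221 to 0.866). At 10 months it was 0.0512 in low-risk (0.0332 to 0.0670), 0.271 in uninvolved liver (0.220 to 0.350) and 0.212 in tumors (0.112 to 0.344). The low-risk and uninvolved livers of 10 months did not overlap, whereas at 5 months the highest low-risk ratio, that of mouse 2, lay within the high-risk range. In vehicle liver the medians were 0.0830 at 3 weeks, 0.0787 at 5 months and 0.0501 at 10 months, and Pkm and Pklr both fell between 3 weeks and 5 months. In every group the median level of Pklr per length stayed above that of Pkm. The ratio of the mitochondrial Pck2 to the cytosolic Pck1 had a median of 0.000691 in low-risk liver at 5 months (0.000295 to 0.00179) and 0.00183 in high-risk liver (0.000994 to 0.00304), and the groups overlapped. At 10 months its median was 0.000758 in low-risk liver, 0.00131 in uninvolved liver and 0.00197 in tumors.

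**Figure D3:**
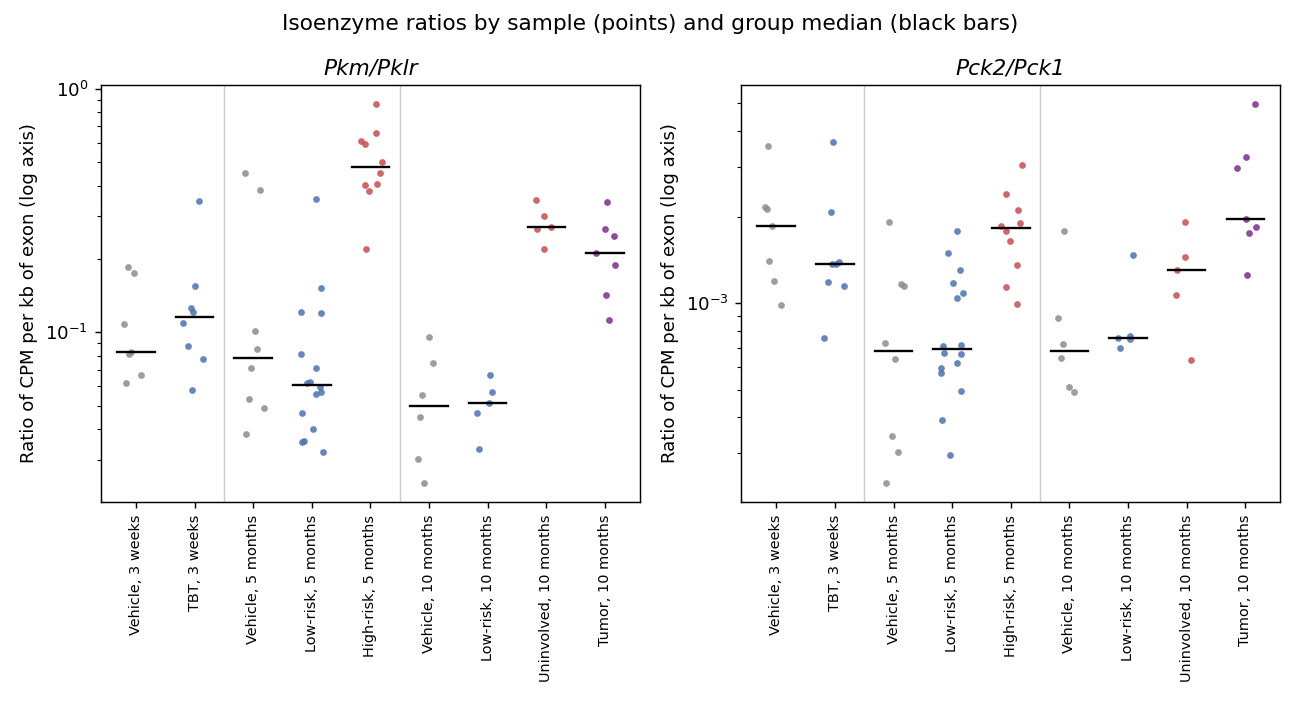
Ratio of isoform levels per kilobase of exon in every sample, on a log axis, by age and group; each point is 1 sample and the bar is the median. The Pkm to Pklr median is 0.476 in high-risk and 0.0609 in low-risk liver at 5 months.

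The partner isoforms were read in the same fits. At 5 months Slc2a2, the low-affinity glucose transporter of hepatocytes, was lower in high-risk than in low-risk liver (-0.90, SE 0.19, adjusted p = 0.000291). Slc2a1, the broadly expressed glucose transporter, was higher (0.51, SE 0.12, adjusted p = 0.00121), and so was Pfkp, the platelet-type phosphofructokinase (1.78, SE 0.36, adjusted p = 0.000183). Pck2, the mitochondrial form of phosphoenolpyruvate carboxykinase, was higher (1.46, SE 0.21, adjusted p = 1.92e-06) while Pck1 did not pass.

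At 10 months Slc2a2 (-0.76, adjusted p = 0.000197), Slc2a1 (0.73, adjusted p = 0.000595), Pfkp (1.44, adjusted p = 6.09e-06) and Pck2 (0.49, adjusted p = 0.019) passed in the same directions in uninvolved against low-risk liver. Hkdc1, a hexokinase-domain gene, was higher (2.18, SE 0.35, adjusted p = 9.46e-05), from a median of 0.567 CPM in low-risk to 2.71 CPM in uninvolved liver. In tumors Pck2 was higher than in uninvolved liver (0.71, SE 0.22, adjusted p = 0.0365) and Mlxipl lower (-1.23, SE 0.19, adjusted p = 0.00183). Hk3 and Aldoc passed in neither risk comparison.

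**Figure D4:**
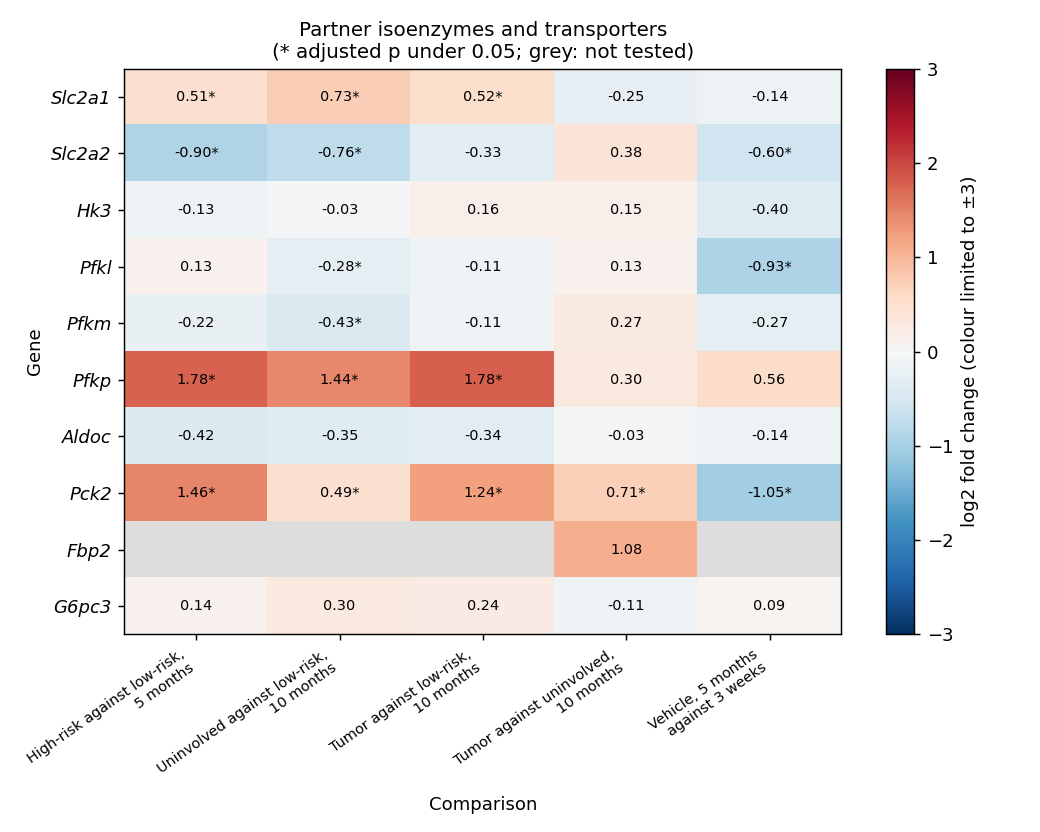
Log2 fold changes on the TMM scale of 10 partner isoforms and transporters in 5 comparisons, as a heat map with 1 row per gene. Pfkp and Pck2 are higher and Slc2a2 lower both in high-risk liver at 5 months and in uninvolved liver at 10 months, each against low-risk liver.

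Genes of the wider pathway passed in both directions, and their counts are to be read against all genes tested, of which 20.3% were higher and 18.5% lower at 5 months. At 5 months 3 of 12 tested genes of glucose transport and phosphorylation were higher in high-risk than in low-risk liver and 5 lower, the latter including Khk, fructokinase (-1.59, SE 0.23, adjusted p = 1.49e-06). Of 17 genes of the shared glycolytic steps 3 were higher (Pfkp, Aldoa, Pkm) and 2 lower, Pklr among them, and 12 did not pass, a smaller share passing than the 38.9% of all genes. The median log2 fold change of that list was 0.02, against -0.01 over all genes. Of 10 gluconeogenic genes 1 was higher (Pck2) and 3 were lower, among them Slc37a4, the glucose 6-phosphate transporter (-1.18, SE 0.23, adjusted p = 0.000146), and Pcx, pyruvate carboxylase (-0.66, SE 0.16, adjusted p = 0.00132).

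Glycogen genes moved in both directions at 5 months, with 5 of 14 higher and 7 lower, beside 20.3% and 18.5% of all genes. The liver phosphorylase Pygl was lower (-0.96, SE 0.13, adjusted p = 5.32e-07) and the brain form Pygb higher (2.50, SE 0.34, adjusted p = 9.84e-07). Of 11 genes that control fructose 2,6-bisphosphate and pyruvate dehydrogenase 2 were higher and 3 lower, with Pdk1, a pyruvate dehydrogenase kinase, at -1.83 (SE 0.23, adjusted p = 3.61e-07). Of 8 pentose phosphate genes 1 was higher and 2 were lower. Of 17 transcriptional regulators 3 were higher, Myc among them (2.02, SE 0.30, adjusted p = 3.11e-06), and 6 were lower. Igfbp1, a gene that insulin represses, was higher (2.26, SE 0.36, adjusted p = 8.08e-06) and Gcgr, the glucagon receptor, lower (-0.89, SE 0.16, adjusted p = 3.52e-05).

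At 10 months, of 19 genes of the shared glycolytic steps 4 were higher in uninvolved than in low-risk liver (Eno2, Pfkp, Ldhb, Pkm) and 7 lower, Pgam1, Pfkl, Pfkm and Pklr among them, beside 27.7% and 24.7% of all genes, with a list median of -0.24 against 0.05 over all genes. Of 11 gluconeogenic genes 1 was higher and 5 were lower, with a median of -0.27. Pdk1 was lower by 2.05 on the log2 scale: its log2 fold change was -2.05 (SE 0.16, adjusted p = 4.81e-08), and its median went from 148 CPM in low-risk to 40.1 CPM in uninvolved liver. Between tumor and uninvolved liver none of 12 transport and phosphorylation genes passed. Of the 19 glycolytic genes Pgk1 (0.45) and Pgam1 (0.48) were higher and Gapdh (-0.36) lower there.

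Markers of other cells moved with the same groups. All 5 proliferation markers and 4 of 5 cholangiocyte markers were higher in high-risk than in low-risk liver at 5 months, and 5 of 7 stellate-cell and fibroblast markers were higher and 1 lower. Of the macrophage markers 3 of 7 were higher and 1 lower, of the T and NK cell markers tested 2 of 3 were higher, and of the endothelial markers 4 of 6 were lower. The summed cholangiocyte markers ran at 25.1, 43.3 and 223 CPM (lowest, median, highest) in low-risk and 32.6, 327 and 442 CPM in high-risk liver. The summed stellate-cell markers ran at 299, 459 and 596 CPM and at 545, 1137 and 1644 CPM, and the proliferation markers at 5.53, 13.99 and 40.8 CPM and at 29.5, 199 and 274 CPM. No marker of these 3 lists was at 0 in either group. At 10 months all 5 cholangiocyte and all 5 proliferation markers were higher in uninvolved than in low-risk liver, beside 27.7% of all genes. From low-risk to uninvolved liver, cholangiocyte sums were 35.9 to 53.6 CPM against 118 to 264 CPM and stellate-cell sums 362 to 503 CPM against 644 to 904 CPM. In the same order, hepatocyte sums were 92406 to 102506 CPM against 76028 to 98361 CPM, and these overlapped. Macrophage sums (395 to 505 against 276 to 506 CPM) and endothelial sums (287 to 356 against 286 to 388 CPM) overlapped as well. Erythrocyte sums at 5 months ran at 103, 356 and 1062 CPM in low-risk and 104, 190 and 746 CPM in high-risk liver, and overlapped. At 10 months they were 142 to 300 CPM in low-risk and 119 to 303 CPM in uninvolved liver. Hk1, Hk2, Aldoa and Pkm are also expressed outside hepatocytes, and Pklr in red cells. The part of these cells in the members' levels was not tested.

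Single livers at the ends of these ranges are given as values. High-risk mouse 22 at 5 months had the lowest cholangiocyte sum of its group, 32.6 CPM, and the highest Pklr, 149 CPM. Its stellate-cell and proliferation sums, 627 and 101 CPM, lay above those of every low-risk liver. Its Hk2 was 7.30 CPM, its Hk1 7.71 CPM and its Pkm 50.7 CPM. Low-risk mouse 2, with the highest Pkm of its group at 132 CPM, had that group's highest cholangiocyte sum, 223 CPM, but an Hk2 of 3.16 CPM and a Pklr of 243 CPM near the low-risk medians. These livers were picked for their extreme values. Skeletal muscle transcripts, which could carry Aldoa and Hk2, summed to over 10 CPM in 6 libraries. Of these only that of high-risk mouse 1 belongs to the 5-month risk groups, and without it and vehicle mouse 9, which shares that fit, the 5 members called there were still called.

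Across 72 samples of all groups, the genes whose log2 CPM ran most like each member's were found by Spearman's rho among 9464 genes whose mean reached 5 CPM. These are descriptions, since samples share groups, ages and library depth. Pklr ran with Hcn3 (0.92), which overlaps it, with Pygl (0.92) and with Khk (0.88). Hk1 ran with Epb41l2 and Cyth3 (0.91 each), Hk2 with Stk10 (0.90) and Psd4 (0.89), Aldoa with Gnl3l (0.89) and Anxa2 (0.85), and Pkm with the histone genes Hist1h4k (0.89) and Hist1h2bn (0.89). The gluconeogenic genes had looser neighbours: Slc25a25 for G6pc (0.77), Tat, tyrosine aminotransferase, for Pck1 (0.65) and Cox7a2 for Fbp1 (0.73). Among the members, rho was 0.84 for Aldoa and Pkm, 0.81 for Hk1 and Pkm, -0.47 for Hk2 and Pklr and -0.10 for Pkm and Pklr.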

How the data were processed

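Liver RNA was isolated with RNeasy and made into stranded total RNA libraries, per the labels' protocols. Trim Galore, HISAT2, featureCounts and the mm10 build are named in the submitters' processing notes, without versions or settings. The deposited table holds whole-number counts per gene, adjusted for batch by ComBat-seq per the file's name, for 75 libraries and 55536 genes, and 0 columns were left unused. All gene IDs matched GENCODE M21, which gave positions and exon lengths.

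Counts were tested with edgeR 4.0.16 (R 4.3.3, limma 3.58.1): filterByExpr, TMM, robust quasi-likelihood fits, and Benjamini-Hochberg adjustment at 0.05, with sequencing batch as a term at 5 months. CPM were computed from the deposited counts and their totals, and log2 fold changes are those of the fits. DESeq2 1.42.0, other filters and scalings, and left-out libraries were alternatives; scaling by total counts, leaving out low-risk mouse 2 or the tumor of mouse 12, and leaving out libraries with muscle transcripts were chosen after seeing the data. The 2 libraries of vehicle mouse 3 at 3 weeks were summed, as were those of uninvolved mice 3 and 6. The fits were also run on simulated counts, drawn independently for each sample with no batch or litter effect. The outcome is not given here, and those features were not tested by it.

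Genes named are the 8 members, their partner isoforms, up to 3 further called genes per list and comparison, and 3 nearest genes per member. Other genes of the glycolytic list are named where they complete a count, chosen after their values were seen. The members and lists were chosen with earlier results of these data known. Tumor and uninvolved liver carry the mouse numbers of the labels, and same-numbered pairs had deviations correlated at -0.343 to 0.686 (6 pairs). Depth ran from 2.832 to 45.45 M counts per library, before libraries were summed. The p-values set a difference against the spread between the samples of a fit. Some genes of the lists are not reported here.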

Additional observations from a re-analysis of the deposited data

Results flagged for a closer look

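Of the 64 sets of values (a member in a group of 4 to 10 samples) 3 had a sample whose gap to the nearest other was large for the group's range, and chance alone marks about 1 in 20 such groups. Hk2 stood at 29.3 CPM in the tumor of mouse 12, with the next tumor at 12.4 CPM. Pklr stood at 149 CPM in high-risk mouse 22 at 5 months, with the next high-risk liver at 92.8 CPM. Pck1 stood at 1780 CPM in vehicle mouse 5 at 3 weeks, with the next vehicle liver at 3210 CPM.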

How the results depend on the processing

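Of 1344 gene values under alternatives, 1296 kept their side of the threshold with no called value changing sign, 28 lost a call, 19 gained one and 1 called value reversed, while 52 values that passed no test changed sign. The reversed value was that of Pkm in high-risk against low-risk liver at 5 months, at -0.0863 in batch 1 alone. Of 168 counts of members called, 14 moved. The 5 members called in that comparison were 2 in batch 1 alone. The 3 called in high-risk against vehicle liver were 1 without a filter, 5 scaled by total counts, 5 without the libraries that stood apart, 0 in batch 1 alone and 0 with the mouse number as a replicate block. Tumor against uninvolved liver went from 0 to 1 with uninvolved mice 3 and 6 kept apart. The 1 called between vehicle livers of 5 and 10 months was 0 without a filter, by total counts and with the vehicle library labelled tumor added, 2 with DESeq2 and with the replicate block, 3 without the libraries that stood apart and 4 without those with muscle transcripts. Leaving out 1 library at a time gave 6 to 7 members called in uninvolved against low-risk liver. Except for high-risk against low-risk liver in batch 1 alone, the shares of all genes passing in these settings are not given here. These moves therefore cannot be told apart from a general change in how many genes pass. The cause was not tested. Outside tumors and uninvolved liver, same-numbered samples share only a number. With mouse as a replicate block, 0 members were called between tumor and uninvolved liver.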
